A study of Homo sapiens with 12 samples.

Results

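ATF4 and 9 genes of its stress programme (ASNS, DDIT3, TRIB3, CHAC1, SESN2, DDIT4, PCK2, ATF3 and ATF5) were described in 3 B cell lines with mutant or wild-type U1. The members were taken by gene symbol, and all 10 were found among the 57820 genes of the count table and passed the filter on low counts. The lines JVM3, HG3 and MEC1 are labelled as chronic lymphocytic leukaemia. In each line, a group labelled MUT (U1 g.3A>C, the mutant small nuclear RNA) was set against a group labelled WT (wild-type U1), with 2 technical replicates per group and 12 libraries in all. The labels do not say how mutant U1 was introduced or whether lines were cloned, so each line stands for 1 culture per status as far as they say, and p-values within a line cover technical spread.

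U1 is the small nuclear RNA that pairs with the 5′ splice site at the start of splicing. ATF4 is a basic leucine zipper transcription factor whose mRNA is translated more when the initiation factor eIF2 is phosphorylated, by kinases that sense amino acid shortage, misfolded protein in the endoplasmic reticulum, haem shortage or double-stranded RNA. ATF4 then binds composite elements at genes for amino acid synthesis, redox balance and stress signalling. Because much of this control acts on translation and protein stability, an RNA level of ATF4 is not a measure of ATF4 protein.

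Gene counts totalled 29880079 to 39716818 per library. Levels are given as CPM, scaled by TMM factors. CPM relates the reads of a gene to its library's counts in all genes that passed the filter on low counts. A gene was called at an adjusted p under 0.05 (Benjamini-Hochberg over 21270 genes, edgeR quasi-likelihood test). RNU1-1, a U1 gene, was higher in both mutant than in both wild-type libraries of each line, with the smallest ratio in JVM3 (58.4 and 59.1 CPM with mutant U1, against 42.5 and 43.5 CPM with wild-type U1). Gene counts cannot show the mutated base, and U1 copies share reads. Summed B cell markers reached 1860 to 2860 CPM per library, against 0.253 to 1.03 CPM for T cell, 0.516 to 7.74 CPM for myeloid and 2.47 to 6.82 CPM for epithelial and stromal markers. CD3G was at 0 in all 12 libraries. CD5, a marker of chronic lymphocytic leukaemia, averaged 40.7 CPM in mutant HG3 and 41.7 CPM in wild-type HG3, but lay under 0.5 CPM in every group of JVM3 and MEC1. FCER2, another such marker, averaged 301 CPM in mutant and 334 CPM in wild-type JVM3. It averaged 671 and 694 CPM in HG3 and 176 and 186 CPM in MEC1, in the same order. As these are bulk samples, fewer expressing cells and less RNA per cell cannot be told apart.

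Promoter windows of the members were also described, and their relation to changes with mutant U1 was not tested. RefSeq windows (GRCh38.p14, 250 bases before to 50 after a start site) were found for all 10 genes, 18 windows in all. They were searched on both strands for TGATGNAA (reverse complement TTNCATCA), the core of the element that ATF4 binds with a C/EBP factor. It was present in 3 of 18 windows, at CHAC1, 1 of the ASNS starts and 1 of the ATF3 starts, and in 1270 of 35116 windows of all genes (3.62%). The 250 bases before the start are shown for those 3 and for PCK2, which fell and has no match, with matched letters in capitals:
ASNS, chr7:97872409-97872658, minus strand: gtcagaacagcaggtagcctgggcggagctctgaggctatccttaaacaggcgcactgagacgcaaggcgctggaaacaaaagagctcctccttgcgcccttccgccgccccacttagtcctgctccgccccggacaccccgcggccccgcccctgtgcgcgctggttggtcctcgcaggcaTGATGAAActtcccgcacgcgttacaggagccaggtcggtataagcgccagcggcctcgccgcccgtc
CHAC1, chr15:40953221-40953470, plus strand: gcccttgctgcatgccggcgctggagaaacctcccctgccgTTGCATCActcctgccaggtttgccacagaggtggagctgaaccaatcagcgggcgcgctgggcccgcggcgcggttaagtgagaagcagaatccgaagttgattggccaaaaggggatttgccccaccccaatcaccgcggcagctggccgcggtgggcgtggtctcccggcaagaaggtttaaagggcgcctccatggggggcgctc
ATF3, chr1:212565157-212565406, plus strand: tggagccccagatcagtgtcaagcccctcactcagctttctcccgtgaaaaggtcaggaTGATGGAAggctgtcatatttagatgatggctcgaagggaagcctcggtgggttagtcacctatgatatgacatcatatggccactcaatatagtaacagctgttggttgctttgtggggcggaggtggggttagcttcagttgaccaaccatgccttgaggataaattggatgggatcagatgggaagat
PCK2, chr14:24094061-24094310, plus strand: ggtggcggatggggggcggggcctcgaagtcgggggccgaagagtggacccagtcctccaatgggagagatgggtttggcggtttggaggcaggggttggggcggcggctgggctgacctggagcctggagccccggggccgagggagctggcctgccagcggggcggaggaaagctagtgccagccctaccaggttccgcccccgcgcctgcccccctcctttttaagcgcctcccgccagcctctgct
The first matched base lies at -68 in ASNS, -209 in CHAC1 and -191 in ATF3, counted from the start site. The CHAC1 match is on the opposite strand. A match describes letters only and is not evidence of binding.

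Across the 3 lines, 3 of 10 members fell with mutant U1 and 0 rose. The called members, PCK2, ASNS and CHAC1, all encode enzymes. Of all genes tested, 3.69% were called in either direction, 1.86% lower and 1.83% higher. DESeq2 called the same 3 members, beside 1326 of 21270 genes. By unadjusted p under 0.05 (edgeR), 5 members differed. The share of all genes at that unadjusted threshold is not given here, so such counts have no background, also in the lists below. The median log2 fold change was -0.16 over the members and -0.01 over all genes, and 7 of 10 members were below 0.

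PCK2 encodes the mitochondrial phosphoenolpyruvate carboxykinase, which turns oxaloacetate into phosphoenolpyruvate. In JVM3 it had 62.8 and 65.8 CPM with mutant U1, against 85.8 and 84.0 CPM with wild-type U1. In HG3 it had 37.2 and 41.8 CPM with mutant U1, against 65.5 and 61.3 CPM with wild-type U1. In MEC1 it had 97.2 and 91.0 CPM with mutant U1, against 165 and 155 CPM with wild-type U1. Both mutant libraries lay below both wild-type libraries in every line. Libraries also failed to overlap in 29 of 30 pairs of member and line, called or not. The share over all genes is not given here, so this does not set PCK2 apart. PCK2 fell by 0.62 ± 0.11 on the log2 scale (SE over 3 lines; adjusted p = 0.0148, edgeR), to 0.651 of wild type. By line, the log2 change was -0.40 (JVM3), -0.68 (HG3) and -0.77 (MEC1).

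ASNS encodes asparagine synthetase, which makes asparagine from aspartate and glutamine. It had 122 and 122 CPM in mutant JVM3, against 168 and 166 CPM in wild-type JVM3. Values in HG3 were 32.0 and 28.9 CPM with mutant U1, against 47.1 and 46.7 CPM with wild-type U1. Values in MEC1 were 355 and 362 CPM with mutant U1, against 478 and 504 CPM with wild-type U1. The groups overlapped in no line, as in most pairs of member and line, and the fall was 0.51 ± 0.06 on the log2 scale (SE over 3 lines; adjusted p = 0.0163, edgeR). JVM3 and MEC1 each had a log2 change of -0.45, and HG3 one of -0.62.

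CHAC1 encodes an enzyme that degrades glutathione. It had 35.5 and 34.9 CPM in mutant JVM3, against 52.4 and 47.8 CPM in wild-type JVM3. In MEC1 it had 41.3 and 35 CPM with mutant U1, against 58.0 and 54.7 CPM with wild-type U1. HG3 held little CHAC1, at 2.88 and 2.73 CPM with mutant U1 (93 and 89 counts) and 4.4 and 4.85 CPM with wild-type U1 (157 and 146 counts). CHAC1 was lower in every line, by 0.58 ± 0.06 on the log2 scale (SE over 3 lines; adjusted p = 0.0167, edgeR). With 2 lines left in the fit, the ASNS call was lost without JVM3 (adjusted p = 0.0647, edgeR) and without HG3 (0.0528), and the CHAC1 call without JVM3 (0.0605) and without MEC1 (0.0592). PCK2 was called in each of these fits.

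**Figure D1:**
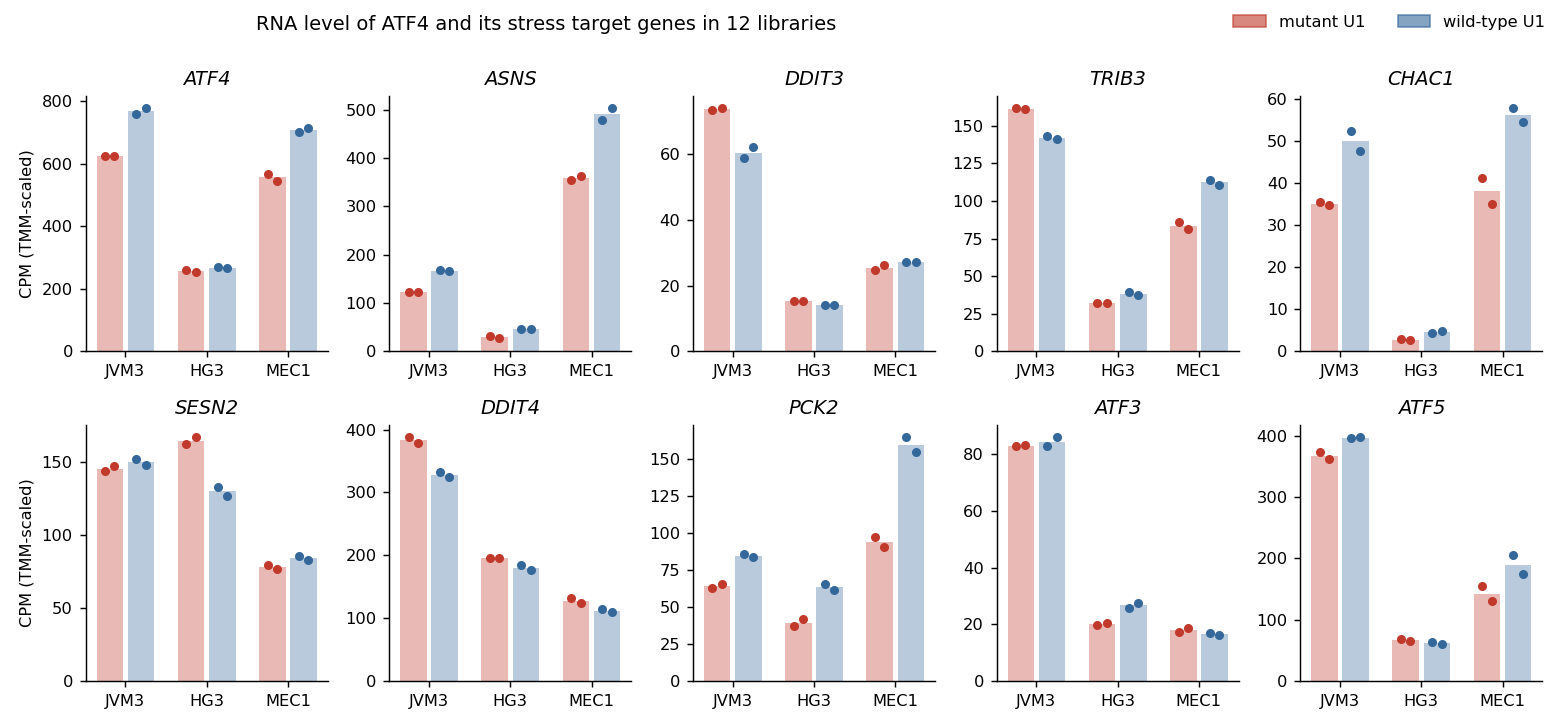
Level of each gene in 12 libraries, in TMM-scaled CPM on linear axes from 0; points are libraries, bars are means of 2, and mutant (red) stands left of wild type (blue) in each line. PCK2, ASNS and CHAC1 are lower with mutant U1 in all 3 lines.

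ATF4 itself was lower in mutant JVM3 and MEC1 but did not pass the test across lines. It had 625 and 625 CPM in mutant JVM3, against 757 and 778 CPM in wild-type JVM3. Values in MEC1 were 568 and 544 CPM with mutant U1, against 700 and 715 CPM with wild-type U1. In HG3 the values lay close, at 259 and 254 CPM with mutant U1 and 269 and 265 CPM with wild-type U1. The log2 change was -0.30 in JVM3 (adjusted p = 1.08e-09, edgeR, as for those that follow), -0.35 in MEC1 (4.36e-12) and -0.06 in HG3 (0.207). Across lines it was -0.24 ± 0.09 (SE; adjusted p = 0.169). The response differed between lines (adjusted p = 3.42e-06), with HG3 above JVM3 by 0.24 and above MEC1 by 0.29 on the log2 scale. The 3 called enzymes were also lower in HG3. Whether their changes follow that of ATF4 RNA was not tested.

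Of the transcription factors downstream of ATF4, DDIT3 and ATF3 responded differently between lines (adjusted p = 0.000368 and 1.48e-05, edgeR). DDIT3 encodes CHOP, a pro-apoptotic C/EBP family factor. It had 73.6 and 74.2 CPM in mutant JVM3, against 58.8 and 62.2 CPM in wild-type JVM3, a log2 change of 0.29 (adjusted p = 1.83e-05, edgeR). In HG3 it had 15.3 and 15.3 CPM with mutant U1, against 14.3 and 14.2 CPM with wild-type U1. In MEC1 it had 24.8 and 26.2 CPM with mutant U1, against 27.2 and 27.3 CPM with wild-type U1. Neither HG3 nor MEC1 was called (log2 0.10 and -0.10).

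ATF3, a stress-induced factor of the ATF/CREB family, was lower in mutant HG3, at 19.6 and 20.4 CPM against 25.9 and 27.5 CPM in wild-type HG3 (log2 -0.42; adjusted p = 3.75e-07, edgeR). Values in JVM3 were 82.9 and 83.2 CPM with mutant U1 and 82.9 and 86.0 CPM with wild-type U1. Values in MEC1 were 17.3 and 18.6 CPM with mutant U1 and 17 and 16.3 CPM with wild-type U1. In JVM3 its groups overlapped. ATF5, a related factor of the mitochondrial stress response, had 155 and 130 CPM in mutant MEC1, against 205 and 175 CPM in wild-type MEC1 (log2 -0.41; adjusted p = 0.0186, edgeR). This call was lost without wild-type MEC1 replicate 1 (log2 -0.29; adjusted p = 0.0706, edgeR). Its log2 change was -0.11 in JVM3 and 0.10 in HG3, neither called. The libraries of a MEC1 group lay further apart for ATF5 than those of the other lines.

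TRIB3, a pseudokinase that binds AKT and feeds back on ATF4, changed in opposite directions. It had 162 and 161 CPM in mutant JVM3, against 143 and 141 CPM in wild-type JVM3. Values in HG3 were 32.3 and 32.3 CPM with mutant U1, against 39.4 and 37.6 CPM with wild-type U1. In MEC1 it had 85.8 and 81.1 CPM with mutant U1, against 114 and 111 CPM with wild-type U1. By gene counts it thus rose in JVM3 (log2 0.18; adjusted p = 0.000479, edgeR) and fell in HG3 (-0.25; 6.63e-05) and MEC1 (-0.43; 9.43e-12). The difference in response had an adjusted p of 2.19e-11 (edgeR).

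SESN2 and DDIT4 encode inhibitors of the growth kinase mTORC1: SESN2 is a leucine sensor, and DDIT4 (REDD1) acts through TSC2. SESN2 rose in HG3, with 162 and 167 CPM with mutant U1 against 133 and 127 CPM with wild-type U1 (log2 0.34; adjusted p = 1.35e-09, edgeR). In JVM3 it had 144 and 147 CPM with mutant U1 and 152 and 148 CPM with wild-type U1. Values in MEC1 were 79.7 and 77.0 CPM with mutant U1 and 85.5 and 82.8 CPM with wild-type U1. SESN2 was not called in JVM3 (adjusted p = 0.473, edgeR), and in MEC1 it lay at the threshold (0.0508). It was called lower in MEC1 with RLE scaling (adjusted p = 0.0476, edgeR) and without wild-type HG3 replicate 1 (0.0486) or 2 (0.0339) or mutant MEC1 replicate 1 (0.0463). The responses of the lines differed (adjusted p = 1.9e-08, edgeR).

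DDIT4 was higher with mutant U1 in each line, and its HG3 call depended on single libraries. It had 388 and 379 CPM in mutant JVM3, against 332 and 325 CPM in wild-type JVM3. In HG3 it had 196 and 195 CPM with mutant U1, against 184 and 177 CPM with wild-type U1. In MEC1 it had 132 and 124 CPM with mutant U1, against 114 and 109 CPM with wild-type U1. The log2 change was 0.22, 0.12 and 0.20 in JVM3, HG3 and MEC1 (adjusted p = 7.27e-06, 0.0129 and 4.81e-05, edgeR). The HG3 call was lost without mutant HG3 replicate 1 (adjusted p = 0.129, edgeR) or 2 (0.0851), without wild-type HG3 replicate 2 (0.159), and with no filter on low counts (0.116). Across lines the size was 0.18 ± 0.03 (SE), which missed the threshold (adjusted p = 0.22, edgeR; unadjusted p = 0.0459).

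Within JVM3, 7 members were called, 3 higher and 4 lower, where 22.4% of all genes were called (10.4% higher and 12% lower). Within HG3, 2 members were higher and 5 lower, beside 38.3% of all genes (18.7% higher and 19.6% lower). Within MEC1, 1 was higher and 6 lower, beside 36.6% of all genes (18% higher and 18.6% lower). The members' median log2 change was -0.08 for JVM3, -0.15 for HG3 and -0.38 for MEC1. The response differed between lines for 6 of 10 members (32.0% of all genes). By pairs of lines, the response of HG3 differed from that of JVM3 for 5 members (19.4% of all genes) and from that of MEC1 for 5 (21.8%), and MEC1 from JVM3 for 3 (18.4%). Of these pairwise calls, 3 were lost when single libraries were left out. They were ASNS and TRIB3 between HG3 and MEC1 (adjusted p up to 0.377, without mutant HG3 replicate 2, and 0.241, without mutant MEC1 replicate 2, edgeR) and PCK2 between HG3 and JVM3 (0.0595, without mutant HG3 replicate 1). The TRIB3 call was also lost without single JVM3 libraries (adjusted p = 0.0777 to 0.0835, edgeR). It was lost too by DESeq2 (0.0714) and with no filter on low counts (0.2, edgeR). Those 2 settings added ATF5 between HG3 and MEC1 (0.00199 by DESeq2, 4.04e-06 by edgeR). ASNS (adjusted p = 0.0509, edgeR), CHAC1 (0.576), DDIT4 (0.245) and ATF5 (0.0978) were not called in the test over all 3 lines. In the test over all 3 lines ASNS was called with RLE scaling (adjusted p = 0.046, edgeR), and ATF5 by DESeq2 (0.00508). Without the filter on low counts both were called (ASNS 0.0246, ATF5 8.48e-06, edgeR), as they were with mutant MEC1 replicate 1 or 2 or wild-type MEC1 replicate 2 left out. ASNS was also called with replicate 1 of mutant JVM3, wild-type JVM3 or mutant HG3 left out.

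**Figure D2:**
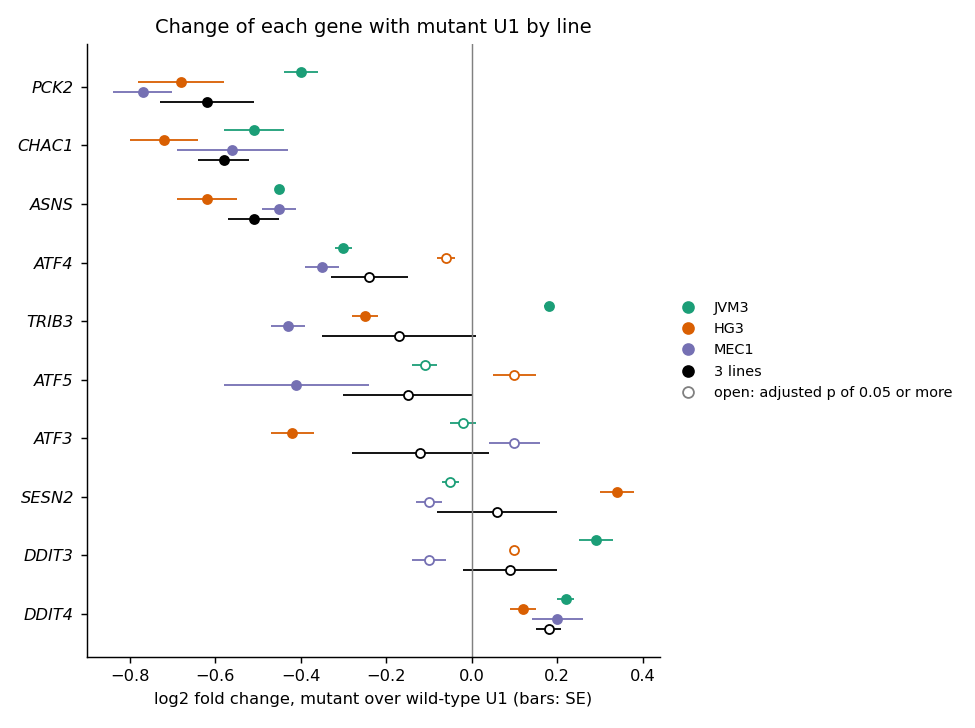
Log2 fold change of mutant over wild-type U1 for each gene within JVM3, HG3 and MEC1 and across the 3 lines; bars are SE (over technical replicates within a line, over lines in black) and open symbols were not called. PCK2, CHAC1 and ASNS lie below 0 in every line and DDIT4 above 0, while TRIB3 crosses 0.

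The members' levels also differed between the wild-type lines. All 10 members were lower in wild-type HG3 than in wild-type JVM3, and all were called (32.5% of all genes were called lower, 63.4% in either direction). The median log2 difference was -1.75 over the members, from -0.20 for SESN2 to -3.44 for CHAC1. Wild-type JVM3 had the highest level of 7 members, and wild-type MEC1 that of ASNS, CHAC1 and PCK2. HG3 was lowest for 7 members and MEC1 for SESN2, DDIT4 and ATF3. Between wild-type MEC1 and JVM3 all 10 differed (71.8% of all genes), 3 higher (33.9%) and 7 lower (37.9%), from 1.55 for ASNS to -2.34 for ATF3 on the log2 scale. CHAC1 was little higher in MEC1 (log2 0.17; adjusted p = 0.0112, edgeR), and its call was lost by DESeq2 (0.0775), without wild-type JVM3 replicate 2 (0.241) and without wild-type MEC1 replicate 1 (0.13). Between wild-type HG3 and MEC1 all 10 differed as well (67.5%), 3 higher (35.3%) and 7 lower (32.1%), from -3.61 for CHAC1 to 0.69 for DDIT4 on that scale. CHAC1 and ASNS spanned the widest range, with the highest wild-type line 12.2 and 10.5 times the lowest. SESN2 spanned the narrowest, at 1.78 times.

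Per kilobase of exon (exon lengths of GENCODE 29), ATF4 was the most abundant member in every group, at 249 CPM per kb (mutant) and 305 (wild type) for JVM3, 102 (mutant) and 106 (wild type) for HG3, and 221 (mutant) and 281 (wild type) for MEC1. DDIT4 came next in JVM3 (186 mutant, 160 wild type) and HG3 (94.9 mutant, 87.6 wild type), whereas ASNS did so in MEC1 (80.5 mutant, 110 wild type). CHAC1 was lowest in HG3, at 1.36 CPM per kb with mutant and 2.25 with wild-type U1. PCK2 was lowest in JVM3 (15.3 mutant, 20.3 wild type) and ATF3 in MEC1 (4.45 mutant, 4.13 wild type).

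**Figure D3:**
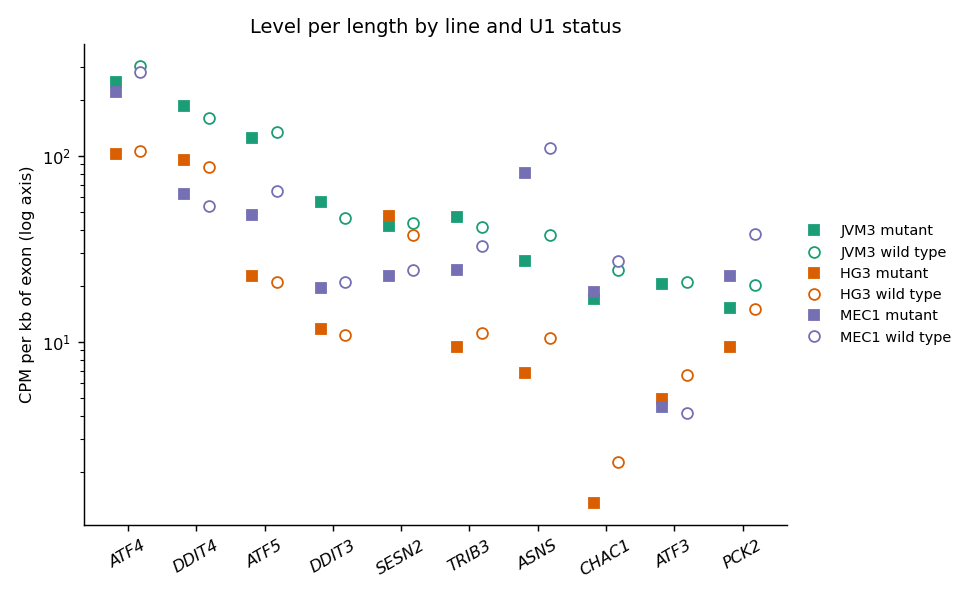
Level of each gene per kb of exon on a log axis, by line; filled squares are mutant and open circles wild-type U1, each the mean of 2 libraries. ATF4 is highest in every group and CHAC1 in HG3 lowest of all.

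Some members share sequence with other genes. DDIT3 overlaps MARS1 on the opposite strand, with 138219 counts against 14575 for DDIT3 over 12 libraries. ATF5 overlaps IL4I1 (43978 counts) and NUP62 (36897 counts), against 82388 for ATF5. Whether reads were counted by strand is not stated by the labels, so the values of DDIT3 and ATF5 are uncertain. Pseudogene copies of ATF4 and ASNS held at most 459 counts each over the 12 libraries.

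Upstream of ATF4, 2 of 16 genes of the eIF2 phosphorylation axis fell and 0 rose, beside 1.86% of all genes called lower and 1.83% higher, with a median log2 change of -0.02. EIF2AK1, the haem-regulated eIF2 kinase, averaged 53.8 ± 17.2 CPM in mutant lines and 133 ± 52.2 CPM in wild-type lines (SD, n = 3 each). Its log2 change was -1.28 ± 0.18 (SE; adjusted p = 0.00442, edgeR), more than for any member. EIF2S2, the beta subunit of eIF2, averaged 134 ± 47.7 CPM in mutant lines and 211 ± 67.0 CPM in wild-type lines (SD, n = 3 each; log2 -0.68; adjusted p = 0.0056, edgeR).

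Among other ATF4-linked genes, 2 of 12 for amino acid synthesis fell and 0 rose (1.86% of all genes were called lower), and 11 of 12 were below 0. The median log2 change over all genes was -0.01, and no list was tested as a set. PSAT1, of serine synthesis, averaged 108 CPM in mutant and 162 CPM in wild-type lines (log2 -0.61 ± 0.04 SE; adjusted p = 0.00652, edgeR). ALDH1L2, a mitochondrial folate enzyme, was called lower (log2 -0.82; adjusted p = 0.0154, edgeR), but HG3 held almost none, at 0.123 CPM with mutant and 0.0867 CPM with wild-type U1. Of 10 amino acid transporters, 2 fell and 0 rose (again beside 1.86% of all genes lower), and all 10 were below 0. These were SLC6A9, a glycine transporter (4.54 CPM in mutant and 7.74 CPM in wild-type lines; adjusted p = 0.0315, edgeR), and SLC43A1, which carries large neutral amino acids (22 CPM in mutant and 30.4 CPM in wild-type lines; 0.0371).

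Of 12 cytosolic aminoacyl-tRNA synthetases, which charge tRNAs, 3 fell and 0 rose, beside 1.86% of all genes called lower. TARS1, for threonine, averaged 121 ± 18.6 CPM in mutant lines and 349 ± 57.3 CPM in wild-type lines (SD, n = 3 each). Its log2 change of -1.53 ± 0.04 (SE; adjusted p = 0.000343, edgeR) was the largest among the called genes of these lists. LARS1, for leucine, changed by -0.66 (adjusted p = 0.0121, edgeR) and AARS1, for alanine, by -0.51 (0.0151). The median log2 change was -0.25 for amino acid synthesis, -0.2 for transporters and -0.21 for synthetases, beside -0.01 over all genes.

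In the remaining lists the called genes were GADD45A and EDEM1, and the share called over all genes was 3.69% (1.83% higher and 1.86% lower). Of 13 tested bZIP partner factors 0 were called (6 at unadjusted p under 0.05; edgeR). JUNB, the most abundant, had a log2 change of 0.35 and an adjusted p of 0.101. Of 15 other stress targets 1 rose and 0 fell (9 at unadjusted p under 0.05; edgeR), and 7 were below 0. The called gene, GADD45A, a growth arrest gene, averaged 82.1 CPM in mutant and 61.3 CPM in wild-type lines (log2 0.50 ± 0.1 SE; adjusted p = 0.0293, edgeR). MEC1 held little of it, at 2.41 CPM with mutant and 1.45 CPM with wild-type U1, and had a log2 change of 0.73. Of 16 targets of XBP1 and ATF6, the other arms of the response to misfolded protein, 1 fell and 0 rose: EDEM1, of endoplasmic reticulum degradation, changed by -0.45 (adjusted p = 0.0373, edgeR). Of 10 tested close relatives of the members 0 were called (2 at unadjusted p under 0.05; edgeR), ATF6 at -0.04 among them. The median log2 change was 0.11 for the other stress targets, above the -0.01 of all genes. It was -0.07 for bZIP partner factors, -0.04 for targets of XBP1 and ATF6 and -0.03 for the close relatives.

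**Figure D4:**
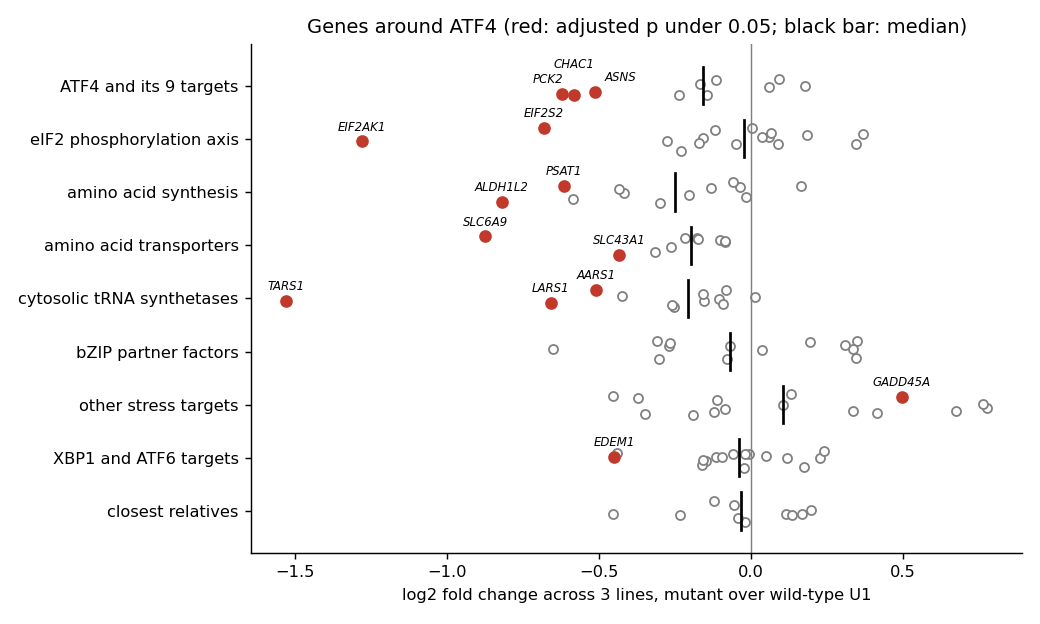
Log2 fold change across the 3 lines of each tested gene in 9 lists; red points were called at adjusted p under 0.05, grey open points were not, and black bars are list medians. All called genes lie below 0 apart from GADD45A at 0.50.

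Splice junctions gave a second view of the same libraries. The junction columns hold 1 value per line and status and carry no replicate number. They were taken as pooled over both replicates, which the labels do not state, so nothing was tested within a line. Junctions were placed in 7 of 10 members (not CHAC1, DDIT4 or ATF5), 47 in all, of which 34 are annotated. Of 15 that could be tested for use of an acceptor, in 4 genes, 0 were called (1 at unadjusted p under 0.05; edgeR), against 2.78% of 35857 junctions. Junction reads changed with the same sign as gene counts in 18 of 21 pairs of gene and line. The widest gap was for DDIT3 in HG3, with a log2 ratio of 0.49 from junction reads and 0.10 from gene counts.

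The largest change in use was in PCK2. An unannotated junction (hg19, chr14:24568929-24571962, plus strand) leaves out an exon of 219 bases (73 codons, with 0 bases over) at chr14:24569204-24569422. In JVM3 it took 9.78% of acceptor reads with mutant U1 (31 of 317; 95% Wilson interval 6.98 to 13.5%), against 6.95% with wild-type U1 (28 of 403; 4.85 to 9.86%). In HG3 it took 11.4% with mutant U1 (21 of 184; 7.59 to 16.8%), against 7.08% with wild-type U1 (23 of 325; 4.76 to 10.4%). In MEC1 it took 13.2% with mutant U1 (66 of 499; 10.5 to 16.5%), against 5.47% with wild-type U1 (44 of 805; 4.1 to 7.26%). Skipping was higher with mutant U1 in each line, and the intervals, which cover counting error only, separated in MEC1 alone. The mean was 11.5 ± 1.72% in mutant and 6.5 ± 0.895% in wild-type lines (SD, n = 3 each), a difference of 4.98 ± 2.53 points that was not called (adjusted p = 0.0629, edgeR). Without MEC1 the adjusted p was 0.791 (edgeR), and with junctions grouped by donor it was 0.358. With that grouping an unannotated ATF4 junction (hg19, chr22:39917676-39917780, plus strand) had an adjusted p of 0.00856 (edgeR), but its use changed by only -0.28 points and all 41 of its reads were in wild-type JVM3.

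In the other 3 genes the largest mean changes in use were small. They were -0.63 ± 2.37 points for ASNS (5.28% in mutant, 5.91% in wild-type lines), 0.23 ± 2.07 points for TRIB3 and 0.0 ± 1.34 points for SESN2 (SD over 3 lines).

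**Figure D5:**
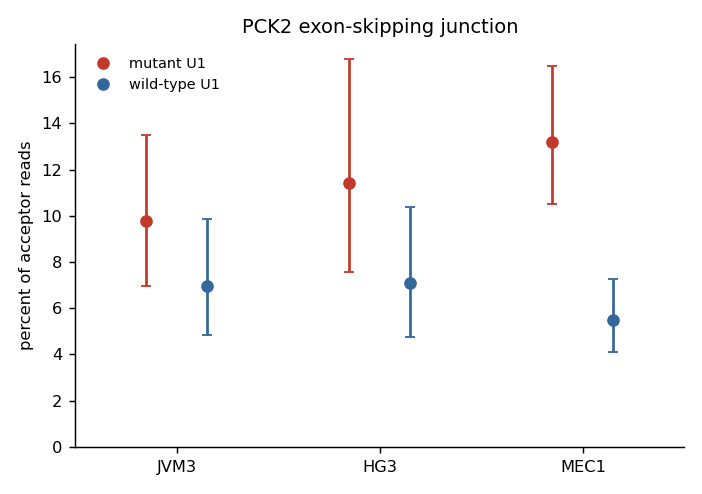
Percent of reads at the PCK2 acceptor that come from the exon-skipping junction, by line, with mutant (red) left of wild type (blue); points are the 1 column per line and status, taken as pooled replicates, and bars 95% Wilson intervals. Mutant values of 9.78 to 13.2% lie above wild-type values of 5.47 to 7.08%.

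Likeness to ATF4 was measured as Pearson's r of log2 CPM over 6 summed libraries with line means taken off, which leaves 3 independent differences. The nearest genes were BRPF3-AS1, ANKH, SERBP1P5, PXK and DCC, all at r of 0.9994 or more. Of 21269 other genes tested, 122 (0.574%) had r over 0.99 and 6.77% had r over 0.9. Among members, r was 0.85 for ATF5, 0.84 for PCK2, 0.81 for CHAC1 and 0.8 for ASNS. It was 0.45 for TRIB3, 0.18 for SESN2, -0.0 for ATF3, -0.38 for DDIT3 and -0.97 for DDIT4. The share of all genes with r of 0.8 or more is not given here, so the members' values have no background.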

How the data were processed

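RNA sequencing of 12 libraries was used; per the labels' protocols, Trizol-extracted total RNA was ribodepleted and made into stranded libraries. STAR 2.5.4b, HTSeq 0.9.1 and the builds hg19 and GRCh37 are named in the submitters' processing notes; not given there are the annotation release, the strand setting and how junctions were extracted. The authors deposited raw read counts per gene and raw junction counts. Lines naming no gene were left out (reads in no feature 17.72% to 24.93%, ambiguous 0.9% to 1.06%, not unique 29.02% to 34.92%). Replicates of a group differed by more than counting noise (mean chi-square per gene 2.28 to 5.29), so none was treated as a duplicate.

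Genes were fitted with edgeR 4.0.16 in R 4.3.3 (quasi-likelihood F-test, TMM, filterByExpr, Benjamini-Hochberg). Across lines, replicates were summed to 6 libraries with the line as a block, and the SE is that of 3 within-line changes. Within lines, between wild-type lines and for differences in response, 12 libraries were fitted as 6 groups. Junction use was tested with diffSpliceDGE at a minimum of 20 reads over all columns; a call also needed a change of 5 points in the same direction in every line. Tests planned on replicate junction columns could not be made, since the columns carry no replicate number and were taken as pooled. Junctions were matched to genes by exact intron lengths in GENCODE 29, with at least 2 introns. Correlations used log2 CPM computed from the deposited counts with a prior count of 2. Scripts were tested on simulated data.

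Alternatives were RLE scaling, DESeq2 1.42.0, no filter, a replicate block, unsummed libraries, each library or line left out, and other junction minimums and grouping. Named genes were all members, the called genes of each list (up to the 4 smallest p), the most abundant gene where none was called, the 5 genes nearest to ATF4, and per member the junction with the largest change. Members, lists and the rule were chosen with earlier results of these data known. TXNIP and PECAM1 were not analysed here.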

Additional observations from a re-analysis of the deposited data

Results flagged for a closer look

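For 6 members the response to mutant U1 differed between lines by a test of the difference itself (edgeR interaction F-test, adjusted over 21270 genes, of which 32.0% were called); p-values cover technical spread only. TRIB3 had an adjusted p of 2.19e-11, with log2 changes of 0.18 (JVM3), -0.25 (HG3) and -0.43 (MEC1). SESN2 had 1.9e-08, with -0.05, 0.34 and -0.10 in the same lines. ATF4 had 3.42e-06, with -0.30, -0.06 and -0.35. ATF3 had 1.48e-05, with -0.02, -0.42 and 0.10. PCK2 had 0.000121, with -0.40, -0.68 and -0.77. DDIT3 had 0.000368, with 0.29, 0.10 and -0.10.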

How the results depend on the processing

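The 3 calls across lines held with RLE scaling, DESeq2, no filter on low counts and each single library left out. The count was 5 with the replicate block and 5 with 12 unsummed libraries and no block, where ATF4 (adjusted p = 0.0106 with the block, 0.00094 without, edgeR) and DDIT4 (0.00789 and 0.000967) were added; both fits treat technical replicates as independent. Replicate numbers did not clearly pair the libraries: same-numbered libraries' deviations correlated at 0.02 (JVM3), 0.1 (HG3) and 0.19 (MEC1). Leaving out a line or library gave 1 to 3 called members, with 1 (PCK2) without JVM3, 2 without HG3 and 2 without MEC1. These fits hold 4 libraries, and 380, 320 and 341 genes were called in all. DDIT3 changed sign without JVM3 (log2 -0.02, adjusted p = 0.953, edgeR), and without HG3 so did SESN2 (-0.08, 0.755) and ATF3 (0.03, 0.917); none was called. Over the fits that leave out a line or library, DDIT3 ranged from -0.02 to 0.2, SESN2 from -0.08 to 0.15 and ATF3 from -0.21 to 0.03. Over all genes, 784 were called across lines, against 1326 by DESeq2, 2540 without the filter, 5084 with the block and 6641 unsummed. The counts within lines, between wild-type lines and for responses over all 3 lines stayed within 1.5 times under every alternative run. For responses differing over all 3 lines they were 6 to 8, where the replicate block added ASNS (adjusted p = 0.0131, edgeR) and ATF5 (8.35e-18). For wild-type MEC1 against JVM3 they were 9 or 10, with CHAC1 lost. The count for responses of HG3 against MEC1 moved further. Without mutant HG3 replicate 2, ASNS (adjusted p = 0.377, edgeR) and TRIB3 (0.145) were both lost there. Within lines the block added ATF5 in JVM3 (0.0017) and HG3 (0.0261) and SESN2 in MEC1 (0.0191). The PCK2 junction had an adjusted p of 0.0442 (edgeR) at a minimum of 50 reads, and an ATF4 junction one of 0.00856 when grouped by donor, but both changes stayed under 5 points, and 0 member junctions were called in any setting.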
